A study of Mus musculus with 6 samples.

Results

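The genes described here encode the machinery that licenses replication origins and copies DNA at the fork, 51 genes among the 19937 that the arrays name. They were taken by name from a list of known subunits and regulators, and each was read through a probe set that carries a single gene symbol. Where a gene had more than 1 such probe set, the brightest over the 6 arrays was kept. All 51 genes were on the array. Levels given below for a subunit, factor or enzyme are those of its RNA, and no protein was measured.

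The arrays measured total RNA of A316, a mouse cell line derived from a primary adenocarcinoma, a tumour that the series title places in the lung. Both groups carry a knockout of Cebpa, which encodes the transcription factor C/EBP alpha, and the labels do not say how the allele was made. The comparison was of 3 arrays of cells given PTC-209 in 0.5% DMSO with 3 arrays of cells given 0.5% DMSO alone, which asks what inhibition of Bmi1 does to gene expression in this tumour line. PTC-209 is a small molecule described as lowering the expression of the Polycomb protein BMI1, and neither its dose nor the exposure time is stated in the labels. The labels describe 1 line and name no separate cultures behind the replicates. The p-values therefore measure only how these arrays spread, which may be technical.

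In the G1 phase of the cell cycle the origin recognition complex (ORC), Cdc6 and Cdt1 load the ring-shaped MCM2-7 helicase onto DNA, which licenses an origin to fire once. At the start of S phase the Cdc7-Dbf4 kinase and cyclin-dependent kinases turn the loaded ring into an active helicase by recruiting Cdc45 and the GINS complex. Polymerase alpha-primase then starts each strand, polymerase epsilon and polymerase delta extend the leading and lagging strands on the sliding clamp PCNA, and many of these genes are known targets of E2F transcription factors in cycling cells.

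Each subcomplex held replication genes that were lower with PTC-209, and in some not every gene was. Of the 51 genes, 46 were lower, none was higher and 5 did not pass the test, which was limma across all probe sets with a Benjamini-Hochberg adjusted p under 0.05. At an unadjusted p under 0.05, 1 gene (Orc4) was higher by limma. Over all 19937 named genes, 13.7% were lower and 12.9% were higher by the same test. These shares also stand beside the counts within each subcomplex below. The median log2 difference of the 51 genes, PTC-209 minus DMSO, was -1.43, a 2.69-fold lower level, against 0.03 for all named genes. At least 2-fold lower levels were called for 33 of the 51 genes, against 4.30% of all genes. Of the 33, 13 were at least 4-fold lower, against 203 of all 19937 named genes. On the arrays themselves, all 3 PTC-209 values lay below all 3 DMSO values for 46 of the 51 genes, an ordering found in 19.4% of all genes. In bulk RNA, fewer cells in S phase and less of these RNAs in each cell cannot be told apart. The values were equalised between arrays before deposit, which would hide a change common to nearly all genes.

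**Figure D1:**
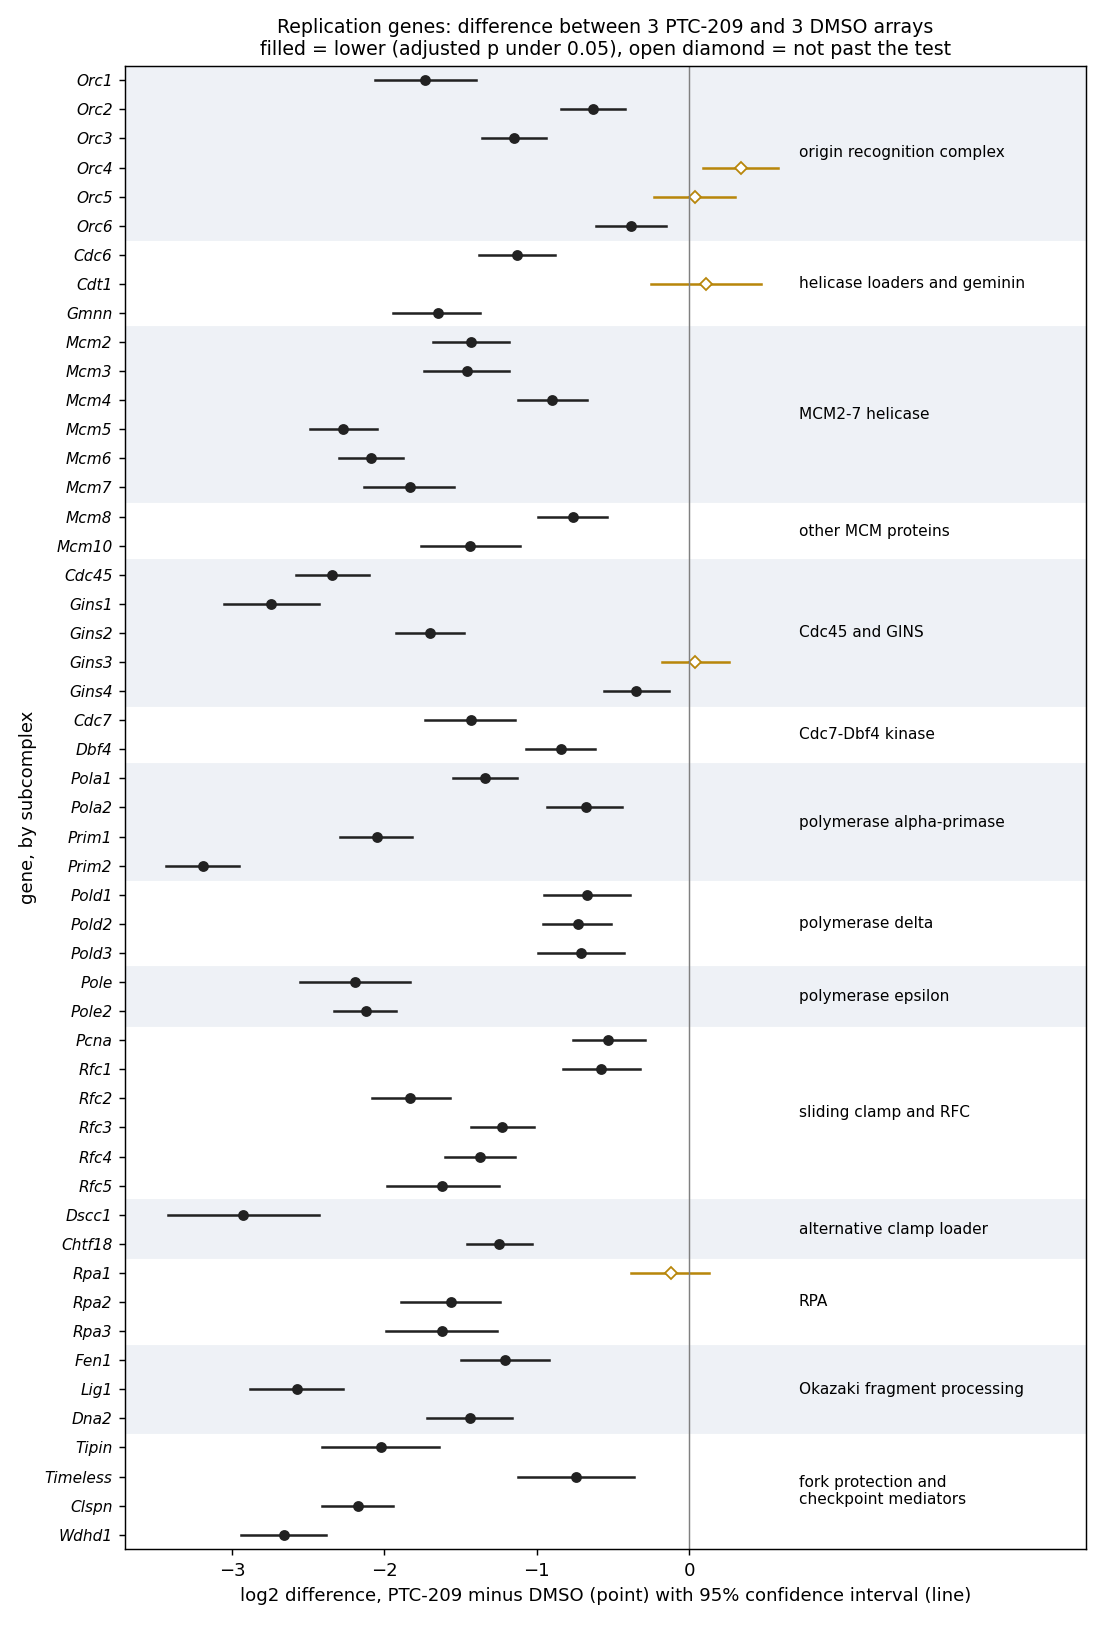
Log2 difference (PTC-209 minus DMSO, horizontal axis) of each of the 51 replication genes, grouped by subcomplex, with 95% confidence intervals from limma on 3 arrays per group. The points run from -3.19 for Prim2 to 0.34 for Orc4, and 46 of the 51 lie below 0 and past the test.

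The differences were shared by the arrays of a group. Each gene was centred on the midpoint of its group means, and the centred log2 values were averaged over the 51 genes. This average was 0.74, 0.67 and 0.62 on the DMSO arrays and -0.64, -0.70 and -0.68 on the PTC-209 arrays. No array of either group lay near the other group. By subcomplex, the median log2 difference was -1.65 for the 6 MCM2-7 genes, -2.10 for the 4 fork protection genes and -0.51 for the 6 ORC genes. Medians of groups of 2 or 3 genes are not ranked, because some leave out measured subunits of the same complex. The quartiles of the 51 genes were -1.93 and -0.72, against -0.14 and 0.19 for all named genes. Over all probe sets, arrays of the same group correlated at 0.992 to 0.996 and arrays of different groups at 0.97 to 0.974.

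**Figure D2:**
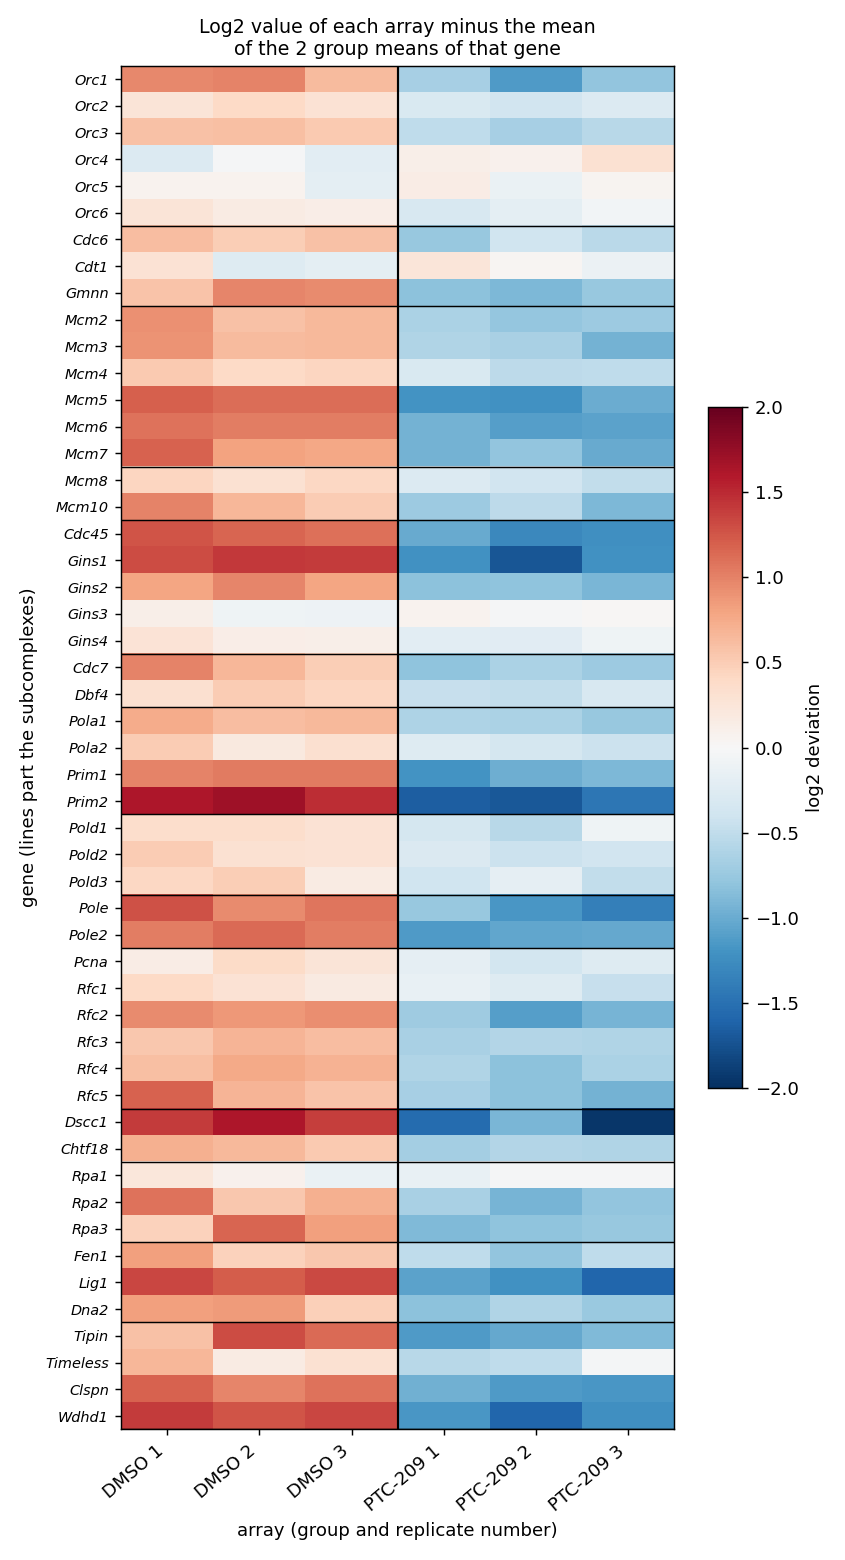
Log2 level of each gene (rows, grouped by subcomplex) on each of the 6 arrays (columns), after subtraction of the midpoint of the 2 group means. Most rows pass from above the midpoint on the DMSO arrays to below it on the PTC-209 arrays, and Orc4, Orc5, Cdt1, Gins3 and Rpa1 do not.

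Bmi1, the named target of the drug, was at 7.47, 7.71 and 7.47 on the log2 scale with DMSO and at 6.97, 6.96 and 7.09 with PTC-209, 1.45-fold lower (adjusted p = 0.00424, limma), and lost its call when a fold change above 1.2 was required (adjusted p = 0.0942). Cebpa lay under the median brightness of 4.33 in both groups, at 3.65 ± 0.16 and 3.79 ± 0.12 (SD, n = 3 each). Whether its probes lie in the deleted part is not given, so this value does not check the knockout. All 7 general epithelial markers, such as Epcam and Krt8, were above the median brightness on every array. Of 7 lung epithelial markers, 4 (Nkx2-1, Sftpc, Scgb1a1 and Napsa) were under it on every array and 1 (Foxa2) was above it on every array. The mean log2 level of the 7 epithelial markers was 8.81 to 8.87 with DMSO and 8.43 to 8.55 with PTC-209, and its genes went both ways: Krt8, Krt18 and Krt19 were lower, and Cdh1 and Cldn4 were higher. Of 8 leukocyte markers, 6 were under the median brightness on all arrays, Ptprc among them, and the list mean was 3.77 to 3.82 with DMSO and 4.1 to 4.17 with PTC-209. Cd68, named like those epithelial genes after the values were seen, was the only leukocyte marker that passed the test. It went from 7.42 ± 0.04 to 10.03 ± 0.04 (SD, n = 3 each), and the other 7 did not pass. The 7 fibroblast markers averaged 3.71 to 3.84 and 3.82 to 3.94 in the same order. Of these 7, 3 were above the median brightness on all arrays and 3 were under it on all arrays. Of the 7 endothelial markers, 6 were under the median brightness on all arrays. The seventh, Cdh5, likewise named after its values were seen, was at 9.48 ± 0.05 with DMSO and 8.15 ± 0.21 with PTC-209. The part of other cell types in the differences was not tested.

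Promoter letters are shown for the MCM2-7 genes that hold an E2F-type octamer, Mcm3, Mcm5, Mcm6 and Mcm7, and for Cdt1 and Gins3, which hold one and did not pass the test. They are examples of lower genes and of genes that did not pass, chosen because they hold these letters. Promoter windows of 300 bases, from 250 before to 50 after the annotated start, came from RefSeq on GRCm38.p6, and 41 of the 51 genes matched. Pole, Gins4, Mcm4, Prim2, Gmnn, Dscc1, Gins2, Tipin, Gins1 and Rfc2 were not matched. All of these were lower, and they include the largest differences of the 51 genes, those of Prim2 (-3.19), Dscc1 (-2.93) and Gins1 (-2.74). Comparisons of genes with and without a match leave them out. The octamers searched, on both strands, were TTTCCCGC, TTTCGCGC, TTTGCCGC and TTTGGCGC. Capitals mark every octamer, on either strand, in the stretches below, which are written 5′ to 3′ on the strand of the gene. At most 30 of the bases that follow the start are printed. The stretches of Mcm3 and Cdt1 lie wholly after the start, and their first octamers begin 20 and 33 bases after it.
Mcm3 (chr1:20820265-20820294, minus strand): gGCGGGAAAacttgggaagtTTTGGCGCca
Mcm5 (chr8:75109326-75109397, plus strand): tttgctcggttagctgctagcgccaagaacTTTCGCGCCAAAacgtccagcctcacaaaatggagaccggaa
Mcm6 (chr1:128359715-128359845, minus strand): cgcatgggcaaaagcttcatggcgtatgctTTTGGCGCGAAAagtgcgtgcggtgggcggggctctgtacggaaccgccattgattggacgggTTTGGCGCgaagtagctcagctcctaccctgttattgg
Mcm7 (chr5:138171854-138172078, minus strand): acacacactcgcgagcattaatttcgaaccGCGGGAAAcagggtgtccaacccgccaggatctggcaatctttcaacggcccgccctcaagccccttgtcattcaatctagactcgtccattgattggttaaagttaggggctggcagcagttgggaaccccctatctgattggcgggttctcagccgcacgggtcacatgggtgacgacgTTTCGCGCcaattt
Cdt1 (chr8:122568035-122568064, plus strand): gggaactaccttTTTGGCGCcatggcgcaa
Gins3 (chr8:95633488-95633555, plus strand): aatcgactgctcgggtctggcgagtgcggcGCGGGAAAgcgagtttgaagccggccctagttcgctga
In Mcm5 and Mcm6 a run of 12 capitals is a pair of octamers that overlap on opposite strands. Mcm6 held a further octamer whose first base lay at -47 from the start. Mcm7 has more than 1 annotated start, and the octamers lay in one of its windows. The log2 differences of the 4 MCM genes shown ran from -1.46 for Mcm3 to -2.27 for Mcm5, and those of Cdt1 and Gins3 were 0.11 and 0.04.

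An octamer lay in the windows of 17 of the 41 matched genes (41.5%), against 3.48% of the 15613 named genes with a window. Counted by window, it lay in 34.0% of the 50 windows of these genes and in 2.26% of all 32851 windows. Apart from the 6 genes shown, these were Cdc6, Clspn, Lig1, Mcm8, Orc1, Orc3, Pola1, Pold1, Pold3, Pole2 and Rfc3, and Mcm2 held none. Within the replication genes the median log2 difference was -1.34 with an octamer and -1.23 without one, and 15 of 17 and 21 of 24 genes were lower. With heptamers, the same letters without the first T, the medians lay further apart, at -1.37 for 27 genes with a match and -0.73 for 14 without, and 24 of 27 and 12 of 14 were lower. Over all named genes with a window, 29.7% of those with an octamer were lower and 13.7% of those without. The CCAAT box, searched as CCAAT on both strands, was in 58.5% of the 41 genes and in 41.7% of all named genes with a window. The cell-cycle homology element, searched as TTTGAA and TTCGAA on both strands, was in 22.0% and 19.0%. Windows of the replication genes had a median of 61.8% G and C, against 52.7% for all windows, and the part of base composition in these shares was not tested. A match describes letters in the window and does not show binding.

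**Figure D3:**
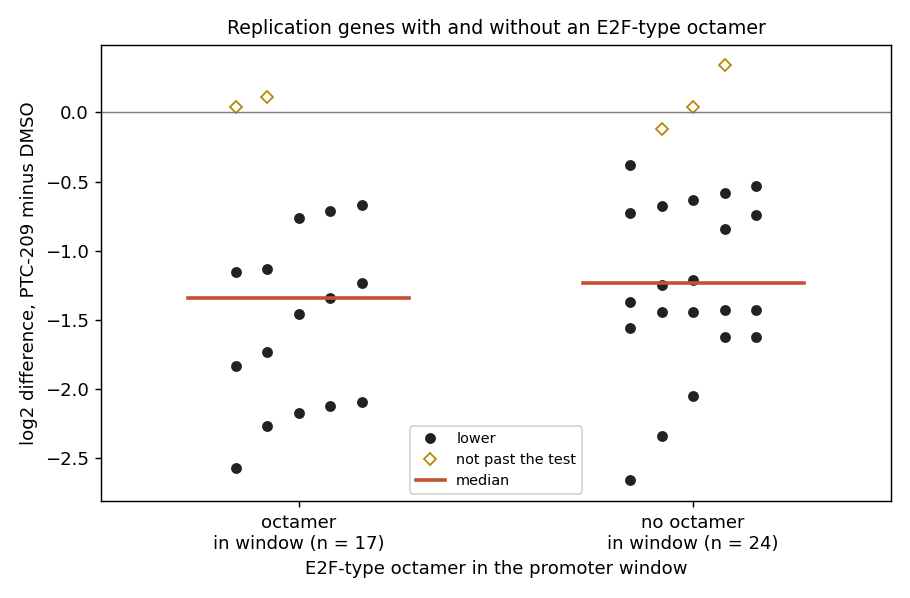
Log2 difference (PTC-209 minus DMSO, vertical axis) of the 41 replication genes with a RefSeq promoter window, split by whether the window holds an E2F-type octamer. The medians, drawn as bars, are -1.34 with an octamer (17 genes) and -1.23 without (24 genes), and each side holds genes that did not pass the test.

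Within ORC, which marks origins, the subunits differed from one another. Orc1, a subunit whose level is known to vary over the cell cycle, was at 7.04, 7.06 and 6.71 on the log2 scale on the DMSO arrays and at 5.40, 4.94 and 5.28 on the PTC-209 arrays. The lowest DMSO value lay 1.31 above the highest PTC-209 value. The log2 difference was -1.73, a level 3.32-fold lower with PTC-209 (95% confidence interval 2.65 to 4.16, adjusted p = 2.42e-05, limma). Orc3 had a log2 difference of -1.15 (2.22-fold lower, adjusted p = 1.72e-05) and Orc2 one of -0.63 (1.55-fold lower, adjusted p = 0.000808). Orc6, which joins the ring of the other subunits loosely, had a log2 difference of -0.38 (adjusted p = 0.0223). That call was lost when any of 4 arrays was left out: DMSO replicate 1 (adjusted p = 0.055), DMSO replicate 2 (0.057), PTC-209 replicate 1 (0.081) or PTC-209 replicate 2 (0.0674). It was also lost when a fold change above 1.2 was required (0.628).

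Orc4 and Orc5, ATP-binding subunits of the same ring, were not lower. Orc4 was at 5.94, 6.19 and 6.0 with DMSO and at 6.33, 6.30 and 6.51 with PTC-209. Its log2 difference of 0.34 (95% confidence interval 0.09 to 0.58) missed the threshold (adjusted p = 0.0512, limma). The adjusted p ranged from 0.0255 to 1 over 15 other settings and passed in 4 of them, among them the fit without DMSO replicate 2 (0.0395). Orc5 was at 6.53, 6.53 and 6.26 with DMSO and at 6.60, 6.32 and 6.51 with PTC-209, and the groups overlapped. Its log2 difference was 0.04 (95% confidence interval -0.23 to 0.30), with no stable sign across settings. For Orc2 to Orc6 together, 3 of 5 were lower, against 13.7% of all named genes, with a median log2 difference of -0.38.

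Among the factors that bring the helicase to ORC, the loader Cdc6 and the inhibitor geminin were lower and Cdt1 was not. Gmnn, which encodes geminin, the protein that binds Cdt1 and prevents relicensing in S and G2 phase, was at 7.86, 8.27 and 8.24 with DMSO and at 6.47, 6.40 and 6.54 with PTC-209. These groups did not overlap, with a 3.15-fold lower level (95% confidence interval 2.59 to 3.83, adjusted p = 1.25e-05, limma). Cdc6, the ATPase that works with ORC in loading, had a log2 difference of -1.13 (2.19-fold lower, adjusted p = 6.76e-05). Cdt1, which carries MCM2-7 to the origin, was at 6.19, 5.63 and 5.70 with DMSO and at 6.13, 5.94 and 5.77 with PTC-209. The groups overlapped, with a log2 difference of 0.11 (95% confidence interval -0.25 to 0.47, adjusted p = 0.719).

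All 6 subunits of the MCM2-7 ring, the motor of the replicative helicase, were lower, with a median log2 difference of -1.65. Mcm5 was at 7.71, 7.63 and 7.63 with DMSO and at 5.32, 5.31 and 5.52 with PTC-209, the largest difference of the ring at 4.82-fold lower (95% confidence interval 4.13 to 5.63, adjusted p = 6.54e-07, limma). Mcm6 was at 8.97, 8.91 and 8.91 against 6.94, 6.78 and 6.82, which is 4.25-fold lower (3.68 to 4.92). Mcm7 was at 9.03, 8.66 and 8.62 against 6.91, 7.06 and 6.84, which is 3.57-fold lower (2.92 to 4.36). For each of these 3 subunits the replicates of a group lay far closer together than the groups did. Mcm3 was at 8.15, 7.88 and 7.89 against 6.65, 6.60 and 6.30, a 2.75-fold lower level (2.26 to 3.35). Mcm2 was at 7.99, 7.66 and 7.72 against 6.45, 6.30 and 6.35, a 2.69-fold lower level (2.26 to 3.21). Mcm4 was at 8.71, 8.58 and 8.62 against 7.88, 7.66 and 7.68, a 1.86-fold lower level (1.59 to 2.18, adjusted p = 0.000155). The interval of Mcm4 ended below the start of those of Mcm2, Mcm3, Mcm5, Mcm6 and Mcm7, and differences between subunits, which are read by different probes, were not themselves tested. The genes of the MCM proteins outside the ring were also lower. Mcm10, which helps to activate the helicase, was at 6.56, 6.23 and 6.07 against 4.84, 5.04 and 4.67, with a log2 difference of -1.44 (adjusted p = 7.55e-05). Mcm8, a helicase of recombination repair, had a log2 difference of -0.76 (adjusted p = 0.00039).

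Cdc45 and GINS, which join the ring to make the active helicase, held some of the largest and some of the smallest differences. Gins1 was at 8.0, 8.10 and 8.09 with DMSO and at 5.49, 4.99 and 5.49 with PTC-209. The lowest DMSO value lay 2.52 above the highest PTC-209 value on the log2 scale. The log2 difference was -2.74, a 6.68-fold lower level (95% confidence interval 5.37 to 8.30, adjusted p = 1.19e-06, limma). Cdc45 had a log2 difference of -2.34 (5.07-fold lower, adjusted p = 7.49e-07) and Gins2 one of -1.70 (3.25-fold lower, adjusted p = 2.19e-06). The other members of the 4-protein GINS complex moved little. Gins4 had a log2 difference of -0.35 (adjusted p = 0.026), and it was lost without DMSO replicate 1 (0.0613), DMSO replicate 2 (0.0571), DMSO replicate 3 (0.0512), PTC-209 replicate 1 (0.0782) or PTC-209 replicate 2 (0.0947), and with a fold change above 1.2 required (0.848). Gins3 was at 6.01, 5.82 and 5.80 with DMSO and at 5.97, 5.87 and 5.92 with PTC-209. These values overlapped, with a log2 difference of 0.04 (95% confidence interval -0.18 to 0.26, adjusted p = 0.831).

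Both parts of the kinase that fires licensed origins were lower. The catalytic subunit Cdc7 was at 5.12, 4.80 and 4.63 with DMSO and at 3.33, 3.50 and 3.41 with PTC-209 (log2 difference -1.43, adjusted p = 4.15e-05, limma). Its PTC-209 values lay under the median brightness of 4.33, where the array resolves levels poorly, so the fold is uncertain. Dbf4, the activating subunit, had a log2 difference of -0.84 (1.79-fold lower, adjusted p = 0.000208).

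**Figure D4:**
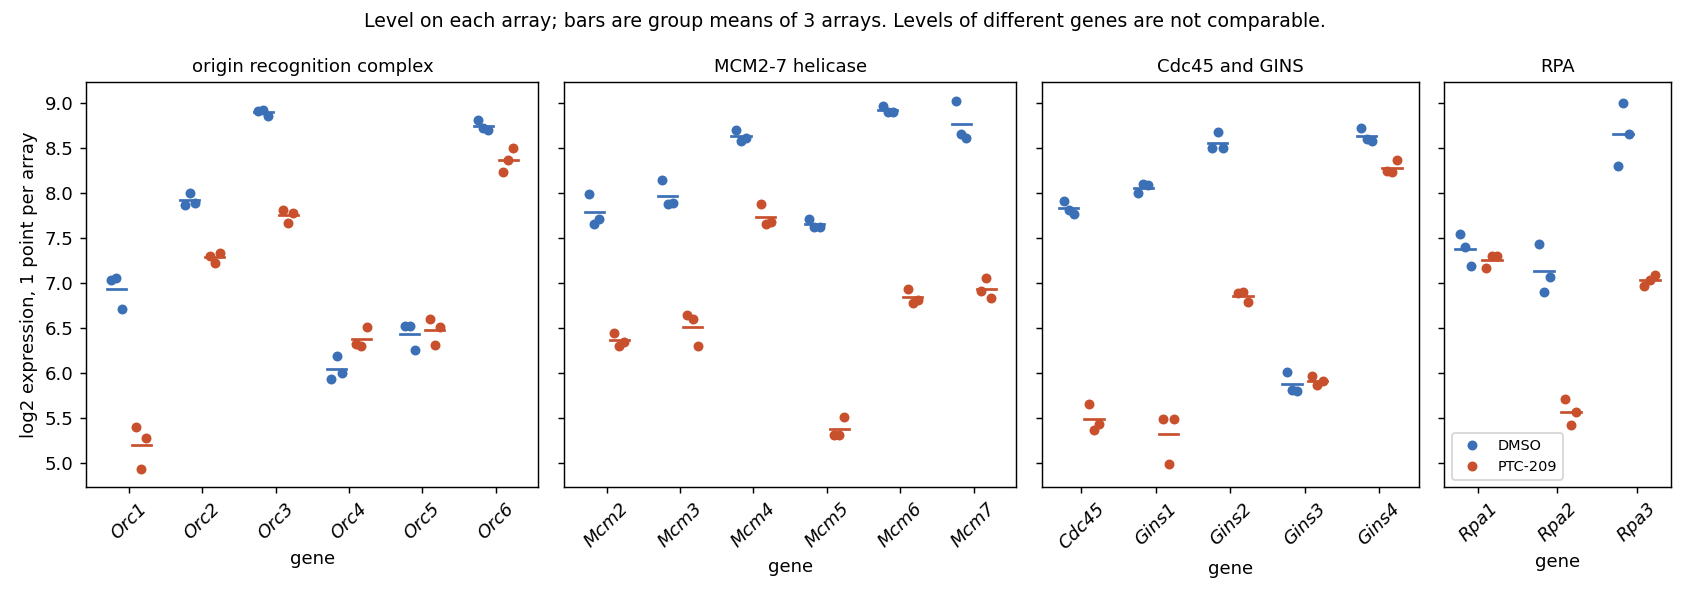
Log2 level of the subunits of ORC, MCM2-7, Cdc45 with GINS, and RPA on each array (1 point per array, 3 per group, bars at group means). Every MCM2-7 subunit is lower with PTC-209, whereas Orc4, Orc5, Gins3 and Rpa1 did not pass the test.

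Polymerase alpha-primase, which makes the RNA-DNA primer of each strand, was lower in all 4 subunits. The primase subunits held the larger differences. Prim2, the large primase subunit, was at 7.38, 7.45 and 7.24 with DMSO and at 4.11, 4.07 and 4.32 with PTC-209, the largest difference of the 51 genes (log2 difference -3.19, 95% confidence interval -3.43 to -2.95, adjusted p = 2.53e-07, limma). Of all named genes, 0.12% had a lower difference. The PTC-209 values of Prim2 were under the median brightness, so its fold is uncertain. Prim1, the catalytic primase subunit, had a log2 difference of -2.05 (4.15-fold lower, adjusted p = 1.16e-06). The polymerase subunits Pola1 and Pola2 had log2 differences of -1.34 (adjusted p = 7.48e-06) and -0.68 (adjusted p = 0.00133).

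The listed subunits of both elongating polymerases were lower. Pole, the catalytic subunit of polymerase epsilon, was at 7.81, 7.47 and 7.60 with DMSO and at 5.77, 5.37 and 5.17 with PTC-209, 4.56-fold lower (95% confidence interval 3.56 to 5.85, adjusted p = 9.49e-06, limma). Pole2, its second subunit, had a log2 difference of -2.12 (4.36-fold lower, 3.78 to 5.03, adjusted p = 5.97e-07). Pold2, the accessory subunit with the largest difference in polymerase delta, was at 9.51, 9.32 and 9.30 with DMSO and at 8.72, 8.58 and 8.63 with PTC-209, 1.66-fold lower (1.42 to 1.94, adjusted p = 0.000514). The catalytic subunit Pold1 and the accessory subunit Pold3 had log2 differences of -0.67 (adjusted p = 0.00339) and -0.71 (adjusted p = 0.00227). The fold intervals of these 3 delta subunits ended at 1.98 or below, and those of Pole and Pole2 began at 3.56 or above. Of the remaining subunits of polymerase epsilon, Pole3 was also lower, by 1.57-fold (1.34 to 1.84), and Pole4 was 1.30-fold higher. Pold4 of polymerase delta, named after its values were seen, had a log2 difference of 0.20 (adjusted p = 0.232). A difference between the polymerases was not tested.

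The sliding clamp and its loader were lower in all 6 genes, by amounts that differed. Pcna, the clamp that holds polymerases on DNA, had a log2 difference of -0.53 (1.44-fold lower, adjusted p = 0.00445, limma), the smallest of these 6, and missed the threshold when a fold change above 1.2 was required (adjusted p = 0.105). A second Pcna probe set read 10.99, 11.45 and 11.36 with DMSO and 10.73, 10.81 and 10.77 with PTC-209, with a log2 difference of -0.50 (adjusted p = 0.0179). The loader, replication factor C, opens the clamp and places it on primed DNA. Its subunit Rfc2 was at 9.10, 9.02 and 9.09 with DMSO and at 7.44, 7.05 and 7.23 with PTC-209, 3.55-fold lower (95% confidence interval 2.97 to 4.24, adjusted p = 3.89e-06). Rfc5, Rfc4 and Rfc3 had log2 differences of -1.62, -1.37 and -1.23. Rfc1, the large subunit, had one of -0.58 (adjusted p = 0.00436), which missed the threshold with a fold change above 1.2 required (0.0775). Dscc1 and Chtf18, subunits of the alternative loader that acts with cohesin, were lower as well. Dscc1 was at 6.36, 6.57 and 6.34 with DMSO and at 3.42, 4.05 and 3.02 with PTC-209, with log2 difference -2.93 (95% confidence interval -3.42 to -2.43, adjusted p = 1.16e-05). Its PTC-209 values were under the median brightness and varied more than those of its partner, so the fold is uncertain. Chtf18, its partner, had a log2 difference of -1.25 (2.37-fold lower, adjusted p = 1.29e-05). Chtf8, the other specific subunit of this loader, named after its values were seen, had a log2 difference of 0.19 (adjusted p = 0.416).

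RPA, the complex that coats single-stranded DNA, was lower in 2 of its 3 subunits. Rpa3, the smallest subunit, was at 8.30, 9.01 and 8.66 with DMSO and at 6.97, 7.04 and 7.09 with PTC-209, 3.08-fold lower (95% confidence interval 2.40 to 3.96, adjusted p = 6.89e-05, limma). The DMSO arrays of Rpa3 spread more widely than its PTC-209 arrays, and the groups did not overlap. A second Rpa3 probe set was also lower, with a log2 difference of -1.17 (adjusted p = 8.4e-05). Rpa2 had a log2 difference of -1.56 (2.96-fold lower, adjusted p = 4.47e-05). Rpa1, the largest subunit, was at 7.55, 7.40 and 7.19 with DMSO and at 7.17, 7.30 and 7.30 with PTC-209. Its groups overlapped, with a log2 difference of -0.12 (95% confidence interval -0.38 to 0.13, adjusted p = 0.527).

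All 3 enzymes that finish Okazaki fragments were lower. Lig1, the ligase that seals them, was at 8.13, 7.99 and 8.10 with DMSO and at 5.72, 5.58 and 5.20 with PTC-209. That difference was 5.95-fold (95% confidence interval 4.81 to 7.36, adjusted p = 1.47e-06, limma). Fen1, the flap endonuclease, had a log2 difference of -1.21 (2.32-fold lower, adjusted p = 0.000104). Dna2, a helicase-nuclease that trims long flaps, had a log2 difference of -1.44 (adjusted p = 2.93e-05), with PTC-209 values under the median brightness.

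Genes whose proteins hold the fork together and pass on checkpoint signals were lower in all 4 cases. Wdhd1, which links the helicase to polymerase alpha, was at 8.27, 8.13 and 8.21 with DMSO and at 5.70, 5.28 and 5.64 with PTC-209. The lowest DMSO value lay 2.43 above the highest PTC-209 value. The log2 difference was -2.66, a 6.32-fold lower level (95% confidence interval 5.20 to 7.68, adjusted p = 7.71e-07, limma). Clspn, which encodes the adaptor claspin, had a log2 difference of -2.17 (4.51-fold lower, adjusted p = 8.44e-07). Tipin and Timeless form a complex at the fork, and their differences were unequal. Tipin had a log2 difference of -2.02 (4.06-fold lower, 3.11 to 5.30, adjusted p = 2.55e-05) and Timeless one of -0.74 (1.67-fold lower, 1.28 to 2.18, adjusted p = 0.0101). Timeless missed the threshold when a fold change above 1.2 was required (adjusted p = 0.073).

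Other genes of DNA replication, grouped by function, were lower in part. Of 56 such genes measured, 35 were lower, 4 were higher and 17 did not pass the test, with a median log2 difference of -0.63. By the same test 13.7% of all named genes were lower and 12.9% were higher, and these shares stand beside each count below. In the group of helicase loading and activation, 7 of 10 were lower, led by Ticrr (log2 difference -2.24, adjusted p = 1.99e-06, limma), which recruits Cdc45, and Topbp1 (-1.58, adjusted p = 5.19e-06), its partner. Among clamps and clamp partners, 3 of 7 were lower, led by the PCNA-binding factor Pclaf (-3.46, adjusted p = 2.51e-07) and Atad5 (-1.52, adjusted p = 5e-06), which unloads PCNA. A second Pclaf probe set had a log2 difference of -3.64. In the same group Rad9a (1.05, adjusted p = 0.000537), part of the checkpoint clamp, and Rad17 (0.43, adjusted p = 0.00645), its loader, were higher. Of the remaining polymerase subunits and partners, 3 of 6 were lower, led by Poldip2 (-1.17) and Pole3 (-0.65), and Poldip3 (0.67, adjusted p = 0.00148) and Pole4 (0.38, adjusted p = 0.0127) were higher. Pole3 and Pole4 encode the small histone-fold partners of polymerase epsilon. The call of Pole4 was lost without DMSO replicate 3 (adjusted p = 0.052) or PTC-209 replicate 3 (0.0503), and those of Pole4 and Rad17 were lost with a fold change above 1.2 required (0.528 and 0.284). Without DMSO replicate 1, 7 of the 56 genes were higher, as were 2647 of all 19937 named genes.

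Enzymes of the lagging strand and of DNA topology were lower in 6 of 9 cases, against 13.7% of all named genes. The lowest were the exonuclease Exo1 (log2 difference -2.64, adjusted p = 5.29e-07, limma) and the topoisomerase Top2a (-2.62, adjusted p = 4.1e-07). A second Top2a probe set, under the median brightness on every array, had a log2 difference of -0.04. Among genes of fork stability and ATR signalling, 7 of 9 were lower, led by the checkpoint kinase Chek1 (-3.07, adjusted p = 2.61e-07) and Mms22l (-2.31, adjusted p = 1.15e-05), which protects stalled forks.

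**Figure D5:**
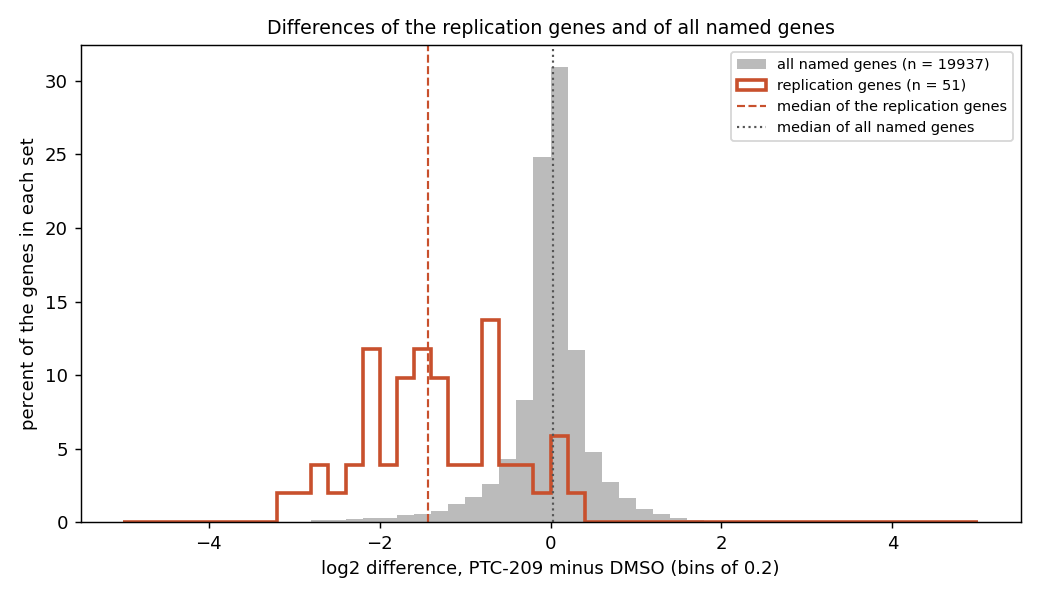
Distribution of the log2 difference (PTC-209 minus DMSO) over all 19937 named genes, with the 51 origin and fork genes set against it. The median is 0.03 for all named genes and -1.43 for the 51 genes.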

How the data were processed

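Biotin-labelled cRNA from Trizol-extracted total RNA was read on 6 Affymetrix arrays, 1 per sample. The authors deposited log2 values per probe set, made with RMA per the submitters' processing notes. RMA corrects background, equalises the distributions of the arrays and summarises probes, and its version was not given in the labels. No raw signals were used, so background could not be read, and the median brightness of 4.33 stood in for it.

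Of 34760 probe sets, 6568 lay in an unannotated block of sequential identifiers, were taken as controls and were left out. The other 28192 were fitted with limma 3.58.1 in R 4.3.3 (lmFit and eBayes, treatment as the only term, all 6 arrays), with Benjamini-Hochberg adjustment over all of them. A gene was called at an adjusted p under 0.05, and intervals are 95%. Of these probe sets, 21640 carried 1 symbol, 1321 several and 5231 none, and only the first were named. Array medians lay between 4.07 and 4.14. The precision rests on 3 arrays per group. The script was tested on simulated data.

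Every replication gene was to be named with its difference, with all 6 values for the largest difference of each subcomplex, for genes not lower and for Mcm2 to Mcm7. Of other replication genes (57 listed, 56 measured), the 2 lowest differences of each group and every higher gene were named, and outside these only Bmi1, Cebpa and, after their values were seen, Pold4, Chtf8 and some cell type markers. Members and lists were chosen with earlier results of these data known. The alternatives were another variance prior, no dim probe sets, quantile, cyclic loess or median scaling, array weights, a replicate block, a fold change above 1.2, the mean of a gene's probe sets, each array left out, and heptamers in place of octamers. Figures were drawn with matplotlib 3.10.9.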

Additional observations from a re-analysis of the deposited data

How the results depend on the processing

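The count of 46 lower replication genes was 41 with a fold change above 1.2 required and 44 to 46 with 1 array left out, and 46 in each of the other 8 settings. Of these 46 genes, 41 passed in all 15 alternatives. None was higher in the fit reported, and 1 (Orc4) was higher without dim probe sets, after a second quantile normalization and with a gene's probe sets averaged. Leaving out 1 array gave 0 to 1 (the 1 without DMSO replicate 2). Orc5 changed sign after cyclic loess (-0.0012) and when arrays were left out (-0.05 to 0.11). Of the other replication genes, 4 were higher, with 3 to 7 when 1 array was left out (2068 to 2647 of all named genes) and 2 under the fold requirement. That requirement also cut the lower and higher genes of the whole array to 1610 and 1270. Cyclic loess moved the median of all genes from 0.026 to -0.005. With heptamers (the same letters without the first T, so each lies inside an octamer) in place of octamers, 65.9% of matched genes held a match, against 14.7% of named genes with a window, and the medians with and without a match moved from -1.34 and -1.23 to -1.37 and -0.73. The causes of these changes were not tested beyond what each setting does by construction.

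Replicate numbers were shared between groups, and deviations of same-numbered arrays correlated at 0.23, 0.07 and 0.07. Those of differently numbered arrays correlated at -0.16 to 0.10, so the 0.23 of replicate 1 was the largest. The labels do not say that the numbers are pairs, and the fit reported did not use them. With the replicate number as a block, 46 replication genes were lower and 0 were higher. The labels give no batch, dose or time, and the comparison has no second line, dose or Cebpa-intact control.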

Other observations

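Genes that rebuild chromatin behind the fork were lower with PTC-209 in 7 of 8 cases, against 13.7% of all named genes, with a median log2 difference of -1.51. Hells, a chromatin remodeller that supports DNA methylation, was at 7.97, 8.16 and 8.20 with DMSO and at 5.82, 5.67 and 5.45 with PTC-209 (5.52-fold lower, adjusted p = 1.01e-06, limma). Asf1b, a chaperone of histones H3 and H4, was at 8.28, 8.12 and 8.10 with DMSO and at 6.21, 6.14 and 6.08 with PTC-209 (4.06-fold lower, adjusted p = 8.58e-07). In both genes the groups were far apart relative to the spread of their arrays.

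Genes that direct the turnover of licensing factors were lower in 2 of 7 cases, against 13.7% of all named genes, with a median log2 difference of -0.17. With 7 genes, the share is too imprecise to compare. Dtl, the substrate receptor that marks Cdt1 for destruction on PCNA, had a log2 difference of -0.70 (1.63-fold lower, adjusted p = 0.000708, limma). Skp2, another receptor that recognises Cdt1, had one of -0.61 (1.53-fold lower, adjusted p = 0.00203).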
